A study of Mus musculus with 30 samples.

Results

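Gene expression in the hippocampus of wild-type mice, 4 pools aged P28 or P32 (days after birth), was set against that of younger wild-type mice, 4 pools aged P18 or P20. The comparison used 8 of the 30 arrays of the series and all 12422 probe sets that are not controls, of 12488 on the array. No measured value chose them, and 7453 passed a filter on low values and were tested. All animals were male pups of a cross of C57BL/6 with Nf1 heterozygous mice, genotyped from liver. Each pool held total RNA from the hippocampi of 2 pups of 1 genotype. The P28, P32, P18 and P20 wild-type groups held 2 pools each. The heterozygous males of the same cross gave 3 pools at P28 and P32 and 4 pools at P18 and P20. Their change with age is described only where the wild-type change is set against it. All 30 arrays entered the fit, so the heterozygous ones also shaped the filter on low values and the p-values of the wild-type comparisons. The sources used here do not give litters or processing days. The p-values measure the spread between pools.

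Between the third and the fifth week after birth the mouse hippocampus completes much of its wiring. Oligodendrocytes wrap axons in myelin, astrocytes take up glutamate and potassium at finished synapses, NMDA receptors change their subunits, and inhibitory interneurons acquire adult firing. Young neurons carry growth cone and microtubule proteins that decline as axons and dendrites settle.

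The promoters of 3 genes are shown because they stand for groups described here. The genes are Sst (somatostatin, the peptide of a class of interneurons), Kif5c (a kinesin motor of neurons), both lower at P28 and P32, and Glul (glutamine synthetase of astrocytes), which was higher. The sequences are those of RefSeq on GRCm38.p6, written 5′ to 3′ on the gene's strand around 1 listed transcript start. Capitals mark matches on either strand to TGACGTCA (the cAMP response element), GGGCGG (the GC box) and TATAAA (the TATA box), which were the motifs searched. The windows are chr16:23890795-23891094 on the minus strand for Sst, chr2:49619036-49619335 on the plus strand for Kif5c and chr1:153899679-153899978 on the plus strand for Glul.
Sst: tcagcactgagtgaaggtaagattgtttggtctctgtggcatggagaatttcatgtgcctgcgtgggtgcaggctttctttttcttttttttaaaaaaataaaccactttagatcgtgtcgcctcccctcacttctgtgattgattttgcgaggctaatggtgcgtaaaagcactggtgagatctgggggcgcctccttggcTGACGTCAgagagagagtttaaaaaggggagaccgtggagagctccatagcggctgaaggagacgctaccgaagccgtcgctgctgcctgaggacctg
Kif5c: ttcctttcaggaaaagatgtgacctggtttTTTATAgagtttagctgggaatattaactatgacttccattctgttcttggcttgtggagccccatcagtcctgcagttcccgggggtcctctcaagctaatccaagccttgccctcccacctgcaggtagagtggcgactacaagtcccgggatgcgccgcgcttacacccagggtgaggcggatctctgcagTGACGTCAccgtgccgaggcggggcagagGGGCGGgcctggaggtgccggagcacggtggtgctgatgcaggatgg
Glul: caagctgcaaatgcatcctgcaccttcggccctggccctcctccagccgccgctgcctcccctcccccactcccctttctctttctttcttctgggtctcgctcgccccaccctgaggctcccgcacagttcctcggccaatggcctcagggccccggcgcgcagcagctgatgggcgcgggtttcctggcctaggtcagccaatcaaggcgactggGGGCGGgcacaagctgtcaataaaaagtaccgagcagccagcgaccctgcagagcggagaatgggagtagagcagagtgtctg
The Sst window held TGACGTCA, the Kif5c window held all 3 motifs, and the Glul window held GGGCGG. Of all 27025 promoters of the same length in the table, 1.88% held TGACGTCA, 35.9% held GGGCGG and 14.2% held TATAAA. A match is a description of the letters and not a site that was measured here.

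The deposited values are intensities, 1 per probe set and array, and differences are given on the log2 scale after values below 1 had been set to 1. Array medians were 51.0 to 52.2 at P28 and P32 and 53.1 to 57.9 at P18 and P20. The 15 genes of hippocampal subfields on the array had a summed intensity of 3791 to 5225 at P28 and P32 and 3911 to 4910 at P18 and P20. None of the 15 was below 1 in all 8 pools. That held for the other lists of marker genes too, those of blood and choroid plexus included, so the tissue named by the labels was not tested. Control probe sets at the 3′ and 5′ ends of a transcript give a measure of RNA and labelling quality. The Gapdh 3′/5′ ratio was 0.996 to 1.11 (median 1.05) in the P28 and P32 pools and 0.793 to 0.855 (median 0.824) in the P18 and P20 pools. The Actb ratio was 1.36 to 1.43 at P28 and P32 and 1.07 to 1.3 at P18 and P20, and the Pcx ratio was 3.09 to 4.72 at P28 and P32 and 2.12 to 2.57 at P18 and P20. In these 3 transcripts the wild-type groups did not overlap (exact two-sided permutation p = 0.0286 each, the smallest that 70 arrangements allow, and 0.0381 adjusted over the 4 transcripts). For Tfrc they overlapped, at 2.23 to 4.98 against 2.66 to 4.9 (exact permutation p = 0.914). The ratio thus moved with age in these 8 pools, and its part in each result below was not tested beyond a fit that holds the Gapdh ratio as a covariate. That fit takes the effect of the ratio from differences between pools of the same genotype and age. They were widest between the heterozygous P18 pools, at 0.9655 and 1.3951, while the wild-type P18 pools had 0.8365 and 0.8549. The fit is therefore no general correction for RNA quality.

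**Figure D1:**
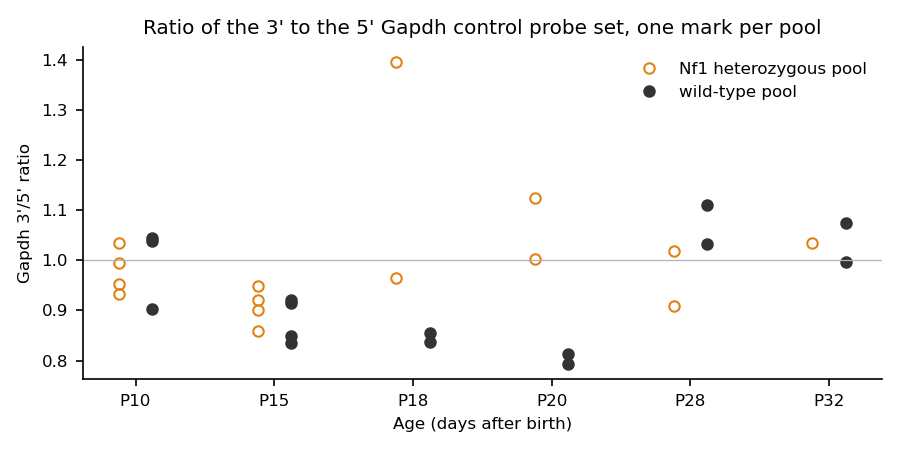
Gapdh 3′/5′ intensity ratio (vertical axis) of each pool by age in days after birth (horizontal axis), for wild-type and heterozygous pools. The 4 wild-type pools at P28 and P32 sit between 0.996 and 1.11, above the 4 at P18 and P20, which sit between 0.793 and 0.855.

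Of the 7453 probe sets tested, 1015 were higher and 1139 were lower at P28 and P32 than at P18 and P20 (28.9% called in all, 13.6% higher and 15.3% lower, limma adjusted p below 0.05). At an unadjusted p below 0.05 the share was 40.5%. Changes over 2-fold were mostly decreases, with 36 probe sets higher (0.483%) and 237 lower (3.18%). The pools of the groups did not overlap for 2202 probe sets (29.5%), 1062 higher (14.2%) and 1140 lower (15.3%). With the Gapdh ratio as a covariate 322 were called (4.32%), 126 higher (1.69%) and 196 lower (2.63%). Of these, 95 higher (1.27%) and 179 lower (2.4%) were called in the same direction with and without it. The count was 2488 in a fit of the wild-type arrays only. It was 1364 without P32 pool 1a, the lowest of the 8 counts that leave out 1 pool. With the title code as a block, which is not known to pair pools, it was 476 (6.39%). No code was shared by older and younger wild-type pools, so that fit takes the code differences between them from other arrays. In bulk tissue, fewer cells of a type and less RNA per cell cannot be told apart.

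Among the genes named for the size of their decrease, Arf3 (chromosome 15, 98737624 to 98763118, GRCm38.p6, the gene's span), a small GTPase of the Golgi, had intensities of 39.6 and 41.5 in the P28 pools and 26.2 and 38.3 in the P32 pools, against 310.1 and 307 in the P18 pools and 268 and 354 in the P20 pools. All 4 older (P28 and P32) pools lay far below all 4 younger (P18 and P20) ones. Genes named by size were chosen among those whose groups do not overlap, so the lack of overlap was fixed by the choice. The log2 difference was -3.10 (SE 0.31, limma adjusted p = 3.21e-07), an 8.6-fold lower level. Ywhag (chromosome 5, 135908379 to 135934641), a 14-3-3 adaptor protein abundant in neurons, had 42.3 and 51.9 in the P28 pools and 46.2 and 62.4 in the P32 pools, against 430.3 and 444 in the P18 pools and 375 and 483 in the P20 pools. Again no older pool reached a younger one, and the difference was -3.10 (SE 0.28, limma adjusted p = 9.27e-08). A second, much brighter Ywhag probe set went the other way without a call, at 3837 to 4811 in the P28 and P32 pools and 3628 to 3959 in the P18 and P20 pools, a difference of 0.20 (SE 0.10, limma adjusted p = 0.138). Arf3 had other probe sets at -0.97, which was called, and -0.20, which was not.

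Fgf13 (chromosome X, 59062139 to 59585572), an intracellular protein that binds sodium channels and microtubules, had the smallest spread among the decreases. Its intensities were 50.5 and 44.7 in the P28 pools and 46.1 and 45.2 in the P32 pools, against 245 and 260.4 in the P18 pools and 246 and 257 in the P20 pools. The pools of each age group differed little from each other, and the difference was -2.43 (SE 0.17, limma adjusted p = 1.27e-09). Kif5c (chromosome 2, 49619286 to 49774778), whose promoter is printed above, had 55.9 and 65.1 in the P28 pools and 40.4 and 66.3 in the P32 pools, against 258 and 212 in the P18 pools and 252 and 235 in the P20 pools. The level was 4.28-fold lower at P28 and P32, a difference of -2.10 (SE 0.22, limma adjusted p = 5.35e-07). Nsmf, which carries signals from NMDA receptors to the nucleus, had 104 and 99.5 in the P28 pools and 40.5 and 126 in the P32 pools, against 646 and 499.8 in the P18 pools and 458 and 569 in the P20 pools, a difference of -2.66 (SE 0.23, limma adjusted p = 9.01e-08). P32 pool 1a was the lowest of the older pools for Nsmf, and it was the lowest for Kif5c as well. A second Nsmf probe set stood at -0.42 (SE 0.29, limma adjusted p = 0.278).

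Pcsk1n, the precursor of a peptide that inhibits prohormone convertase, had 417 and 506 in the P28 pools and 173 and 551 in the P32 pools, against 2204 and 2439 in the P18 pools and 1424 and 1597 in the P20 pools. Its difference was -2.31 (SE 0.26, limma adjusted p = 1.07e-06). Atp6v0a1, a subunit of the proton pump of synaptic vesicles and lysosomes, had 167 and 186 in the P28 pools and 83 and 166 in the P32 pools, against 599.6 and 612 in the P18 pools and 658 and 737 in the P20 pools, a difference of -2.18 (SE 0.22, limma adjusted p = 3.66e-07). P32 pool 1a was the lowest pool for both, and the other older pools also lay below all younger ones. Nfix, a transcription factor of neural progenitors and glia, had a difference of -2.46 (SE 0.32, limma adjusted p = 8.93e-06) in 1 probe set and -0.19 (SE 0.16, limma adjusted p = 0.382) in a brighter one.

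Actb (beta-actin) had a probe set at 112 and 133 in the P28 pools and 95.5 and 150.3 in the P32 pools, against 699.7 and 628 in the P18 pools and 669 and 725 in the P20 pools, a difference of -2.49 (SE 0.32, limma adjusted p = 6.92e-06). Another Actb probe set had a difference of -1.67, also called. The Actb control probe sets for its ends, which were not tested, had intensities of 6782 to 7730 at the 3′ end and 4815 to 5485 at the 5′ end in the P28 and P32 pools. In the P18 and P20 pools they had 5350 to 6467 and 4128 to 6053. The probe sets of 1 gene thus did not share 1 difference. Lasp1, an actin-binding protein, differed by -2.53 (SE 0.36, limma adjusted p = 1.83e-05) in 1 probe set and by -0.06 (SE 0.12, limma adjusted p = 0.726) in a brighter one.

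Dnajb5 and St6galnac6 had the largest decreases of the 12 named by size and were dim in the older pools. Dnajb5, a co-chaperone of the heat shock family, had 11.3 and 7.26 in the P28 pools and 8.22 and 32.9 in the P32 pools, against 144 and 126 in the P18 pools and 118 and 126 in the P20 pools, a difference of -3.40 (SE 0.54, limma adjusted p = 7.05e-05). St6galnac6, an enzyme that adds sialic acid to gangliosides, had 7.97 and 28.5 in the P28 pools and 8.96 and 41.6 in the P32 pools, against 184 and 200.3 in the P18 pools and 149.7 and 178 in the P20 pools, a difference of -3.38 (SE 0.53, limma adjusted p = 6.06e-05). For both, the older pools scattered over several fold while the younger pools lay close together. With log2(value + 32) the differences were -1.81 for Dnajb5 and -2.01 for St6galnac6, still called. With the Gapdh ratio as a covariate they were -1.43 (adjusted p = 0.126) for Dnajb5 and -1.43 (adjusted p = 0.108) for St6galnac6 in limma, neither called.

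**Figure D2:**
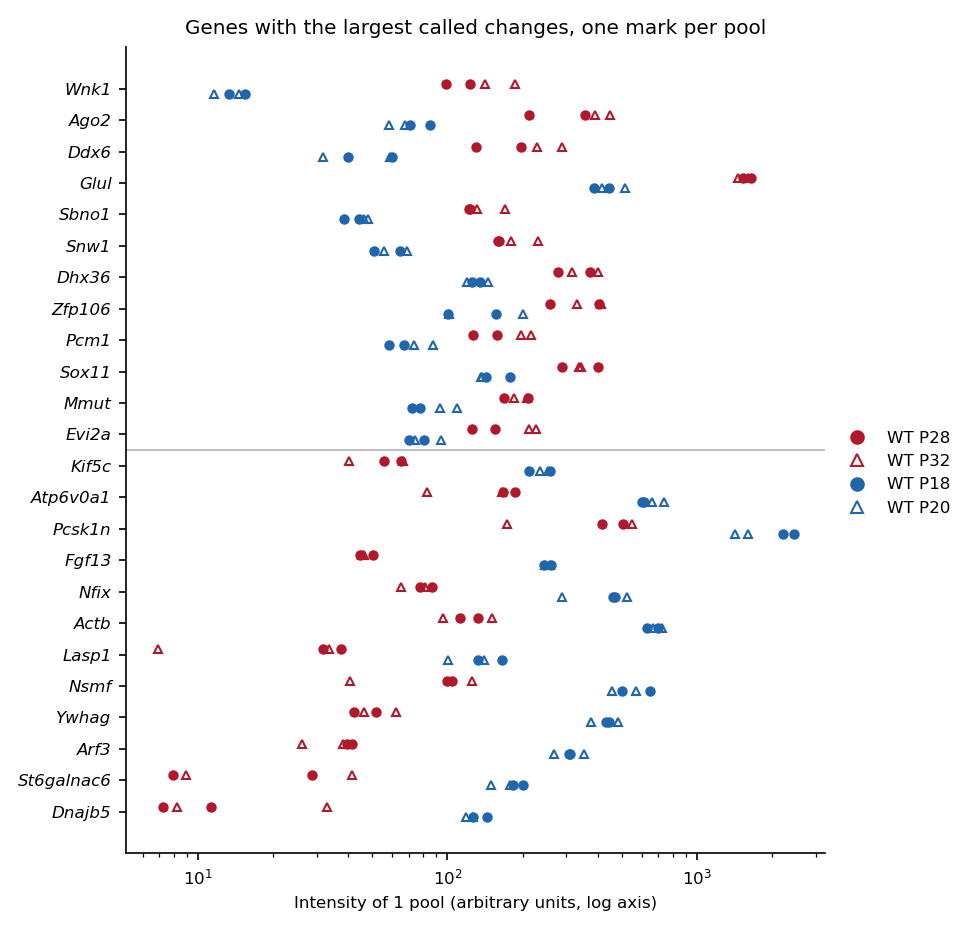
Intensity of each wild-type pool (horizontal log axis, arbitrary units) for the 12 named genes with the largest called increases, above the line, and the 12 with the largest called decreases, below it, chosen among genes whose groups do not overlap. Older pools are red and younger pools blue, circles and triangles separate the ages within each, and for all 24 genes the 4 older pools lie to 1 side of the 4 younger ones.

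Among the genes named for the size of their increase, Glul (chromosome 1, 153899929 to 153909723), which makes glutamine from the glutamate that astrocytes take up, had 1650.0 and 1536 in the P28 pools and 1608 and 1462 in the P32 pools, against 388 and 443 in the P18 pools and 416 and 513 in the P20 pools. All 4 older pools lay far above all 4 younger ones, and these genes too were chosen among those whose groups do not overlap. The difference was 1.84 (SE 0.17, limma adjusted p = 9.27e-08), a 3.57-fold higher level, and it was 1.82 (adjusted p = 0.000273) in limma with the Gapdh ratio as a covariate. A dimmer Glul probe set, at 152 to 242 in the P28 and P32 pools and 162 to 263 in the P18 and P20 pools, had a difference of -0.17 (SE 0.16, limma adjusted p = 0.456).

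Wnk1, a kinase that regulates chloride cotransporters, had 3 probe sets, all called higher. The one with the largest change had 123 and 98.9 in the P28 pools and 186 and 141 in the P32 pools, against 13.2 and 15.5 in the P18 pools and 14.6 and 11.6 in the P20 pools, a difference of 3.29 (SE 0.44, limma adjusted p = 1.14e-05). The brightest of them had 553 and 550.3 in the P28 pools and 646 and 726 in the P32 pools, against 427 and 442 in the P18 pools and 472 and 504 in the P20 pools, a difference of 0.42 (SE 0.09, limma adjusted p = 0.00124). No older pool overlapped a younger one in any of the 3, but the sizes differed between the sets, with the remaining one at 1.92.

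Ago2 (chromosome 15, 73101625 to 73184947), the argonaute protein that cuts RNA guided by small RNAs, had 356 and 212 in the P28 pools and 448 and 388 in the P32 pools, against 71 and 84.9 in the P18 pools and 58.1 and 67.8 in the P20 pools. The difference was 2.28 (SE 0.37, limma adjusted p = 8.93e-05). Ddx6, an RNA helicase of processing bodies, had differences of 2.14 (SE 0.44, limma adjusted p = 0.000946), 1.15 and 0.20 in its 3 probe sets, the last not called. Xrn1, the exonuclease that degrades decapped RNA, had 65.3 and 49.6 in the P28 pools and 71 and 62 in the P32 pools, against 8.48 and 13.3 in the P18 pools and 6.47 and 29.6 in the P20 pools, a difference of 2.34 (SE 0.47, limma adjusted p = 0.000683). Dhx36, a helicase that unwinds G-quadruplexes, had a difference of 1.37, and Snw1, a splicing and transcription cofactor, one of 1.60, both called. With the Gapdh ratio as a covariate, none of these 5 genes was called by limma, with adjusted p = 0.0621 for Ago2, 0.14 for Ddx6, 0.079 for Xrn1, 0.145 for Dhx36 and 0.0518 for Snw1.

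Other increases fell on genes of several roles. Mmut, the mitochondrial methylmalonyl-CoA mutase, had 210.0 and 168 in the P28 pools and 208 and 185 in the P32 pools, against 77.8 and 71.9 in the P18 pools and 93.3 and 109 in the P20 pools, a difference of 1.14 (SE 0.15, limma adjusted p = 1.16e-05). Sox11, a transcription factor of young neurons, had 399.5 and 288 in the P28 pools and 342 and 338 in the P32 pools, against 179 and 143 in the P18 pools and 137 and 136 in the P20 pools, a difference of 1.20 (SE 0.21, limma adjusted p = 0.000178). Nexmif, an X-linked gene of neurite growth, had 84.6 and 86.1 in the P28 pools and 92.3 and 103 in the P32 pools, against 25 and 33.9 in the P18 pools and 18.4 and 28.5 in the P20 pools, a difference of 1.82 (SE 0.25, limma adjusted p = 1.38e-05). In these 3 genes no older pool overlapped a younger one, which the choice had fixed for Mmut and Sox11. Pcm1, a centriolar satellite protein, and Sbno1 differed by 1.27 and 1.62, both called. A brighter Sbno1 probe set had a difference of 0.16 (SE 0.08, limma adjusted p = 0.164). Zfp106, an RNA-binding zinc finger protein, was called in opposite directions by its probe sets, at 1.37 (SE 0.28, limma adjusted p = 0.00101) and -0.75 (SE 0.18, limma adjusted p = 0.00254).

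Gene lists were described by the brightest probe set of each gene. Over all 5694 genes measured this way, 803 rose, 827 fell and the median difference was 0.01. Under the Gapdh covariate 100 rose and 129 fell, and in every fit that left out 1 of the 8 pools 363 of the 803 and 459 of the 827 were called. Taken singly, those fits had 478 to 739 increases and 546 to 818 decreases, the fewest of each without P32 pool 1a. Of 16 astrocyte genes tested, 6 rose and 6 fell, with a median of -0.02. With the Gapdh covariate 3 rose and 2 fell, and 3 rose without P32 pool 1a. Besides Glul, the water channel gene Aqp4 rose, with 960.4 and 885 in the P28 pools and 1144 and 1214 in the P32 pools, against 558 and 674 in the P18 pools and 391 and 521 in the P20 pools, a difference of 0.99 (SE 0.15, limma adjusted p = 5.3e-05). Its P20 pools were lower than its P18 pools. The calcium-binding protein gene S100b rose as well, with 248 and 258 in the P28 pools and 299.6 and 311 in the P32 pools, against 205 and 196 in the P18 pools and 184 and 184 in the P20 pools, a difference of 0.53 (SE 0.12, limma adjusted p = 0.0018). Atp1b2, a sodium pump subunit of astrocytes, fell, with 129.7 and 126 in the P28 pools and 104 and 169.7 in the P32 pools, against 437 and 461 in the P18 pools and 309.9 and 411 in the P20 pools, a difference of -1.62 (SE 0.22, limma adjusted p = 1.36e-05). Apoe, the main lipid carrier of the brain, fell by less, at -0.51 (SE 0.09, limma adjusted p = 0.000228), and the gap junction gene Gjb6 had -0.58 (SE 0.16, limma adjusted p = 0.00788). Gfap, the intermediate filament of astrocytes, was not called, with 366 to 654 in the P28 and P32 pools and 297 to 409 in the P18 and P20 pools and a difference of 0.36 (SE 0.20, limma adjusted p = 0.17).

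Of 14 myelin and oligodendrocyte genes tested, 4 rose and 1 fell, with a median of 0.40. Under the Gapdh covariate 0 rose and 1 fell, with a median of 0.04, and against P18 alone 2 rose and 2 fell. The genes of the major myelin proteins were not called. Mbp, myelin basic protein, had 2828 to 3367 in the P28 and P32 pools and 3389 to 3792 in the P18 and P20 pools, a difference of -0.19 (SE 0.11, limma adjusted p = 0.2). Mog, on the outer myelin surface, had 343 to 383 in the P28 and P32 pools and 264 to 398 in the P18 and P20 pools, a difference of 0.12 (SE 0.40, limma adjusted p = 0.845). Mag, the myelin-associated glycoprotein, had a difference of -0.62 (SE 0.25, limma adjusted p = 0.0652). Mobp had 0.51 in its brightest probe set, not called, and -0.91 (SE 0.25, limma adjusted p = 0.00834) in another, so its sets did not share a direction. The genes that rose were Evi2a, embedded in an intron of Nf1, at 1.07 (SE 0.25, limma adjusted p = 0.00248), Septin4 at 0.68, Qdpr at 0.51 and Car2 at 0.40. Ugt8a, which makes galactosylceramide of myelin, fell, with 97.8 and 103 in the P28 pools and 104 and 105 in the P32 pools, against 242 and 229 in the P18 pools and 188 and 258 in the P20 pools, a difference of -1.15 (SE 0.24, limma adjusted p = 0.00111). Of 8 genes of oligodendrocyte precursors, Id2 (0.54) and Id4 (0.46), inhibitors of differentiation that other cells use too, rose, and Pdgfra, the defining receptor of these cells, had -0.26, not called. Septin4 was not called in 4 of the 8 fits that left out 1 pool (largest limma adjusted p = 0.0763).

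Of 10 microglia genes tested, 5 fell and 1 rose, with a median of -0.31. C1qa, a chain of the complement component C1q that tags synapses, had 242 and 207 in the P28 pools and 242 and 298 in the P32 pools, against 514 and 449 in the P18 pools and 328 and 442 in the P20 pools, a difference of -0.80 (SE 0.19, limma adjusted p = 0.00241). All older pools lay below all younger ones. C1qc had -0.59, the fractalkine receptor gene Cx3cr1 -0.50 and the lysosomal gene Cd68 -0.47, all called. Each of these 3 lost its call without 1 or more of the pools, with a largest limma adjusted p of 0.121 for C1qc, 0.0568 for Cx3cr1 (without P18 pool 1d) and 0.118 for Cd68. Ctss was the gene that rose, and it was not called in 4 of the 8 fits that left out 1 pool (largest limma adjusted p = 0.0724). Csf1r had 0.0025 (SE 0.10, limma adjusted p = 0.988) and Laptm5 -0.22 (SE 0.13, limma adjusted p = 0.216), neither called. The list had 3 decreases without P18 pool 1d, P28 pool 1a or P32 pool 1b. Over all genes tested these fits had 623, 682 and 818 decreases, against 827 with all pools. The summed intensity of the 15 microglia genes on the array was 2280 to 2705 at P28 and P32 and 2586 to 3106 at P18 and P20, and none of them was below 1 in all 8 pools. With the Gapdh ratio as a covariate 0 of the 10 were called, and the median was -0.02.

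Of 16 genes of ionotropic glutamate receptors and the postsynaptic density, 6 fell and 1 rose, with a median of -0.26. Once the Gapdh ratio was a covariate, 1 fell and 0 rose, with a median of -0.17. Grik5, a kainate receptor subunit, had 197 and 208 in the P28 pools and 96 and 183 in the P32 pools, against 587 and 559 in the P18 pools and 465 and 476 in the P20 pools, a difference of -1.67 (SE 0.21, limma adjusted p = 4.84e-06). Grin2b, the NMDA receptor subunit of young synapses, had 35 and 33 in the P28 pools and 26.8 and 35.7 in the P32 pools, against 81.4 and 73.4 in the P18 pools and 76.7 and 77.2 in the P20 pools, a difference of -1.25 (SE 0.24, limma adjusted p = 0.000531). For both genes all older pools lay below all younger ones. Its counterpart Grin2a, the subunit of mature synapses, had 26.3 to 48.5 in the P28 and P32 pools and 34.5 to 41.4 in the P18 and P20 pools, a difference of -0.10 (SE 0.44, limma adjusted p = 0.888), and whether the subunits differed in their change was not tested. Cnih2, an AMPA receptor auxiliary protein, and Dlg4 (PSD-95), the scaffold of the postsynaptic density, differed by -0.95 (SE 0.16, limma adjusted p = 0.000107) and -0.84 (SE 0.18, limma adjusted p = 0.00151). Gria2, the AMPA receptor subunit that blocks calcium, rose by 0.41 (SE 0.09, limma adjusted p = 0.00129). Of 11 genes of metabotropic receptors and plasticity kinases, 3 fell and 2 rose. Camk2a, the kinase of long-term potentiation, had 14.9 and 11.2 in the P28 pools and 14.4 and 49.4 in the P32 pools, against 73.8 and 139.7 in the P18 pools and 59 and 123 in the P20 pools, a difference of -2.33 (SE 0.52, limma adjusted p = 0.00194), in a dim probe set. With the Gapdh covariate neither Grin2b (limma adjusted p = 0.204) nor Camk2a (adjusted p = 0.33) was called.

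Of 20 genes of synaptic vesicles and release, 8 fell and 4 rose, with a median of -0.24. Under the Gapdh covariate 3 fell and 1 rose. Vamp1, a vesicle SNARE, had 20.6 and 23.1 in the P28 pools and 13.5 and 24.6 in the P32 pools, against 115 and 111 in the P18 pools and 93.3 and 106 in the P20 pools, a difference of -2.41 (SE 0.39, limma adjusted p = 8.93e-05). Cplx1, a complexin that regulates release, had 309.9 and 331 in the P28 pools and 248 and 462 in the P32 pools, against 1078 and 1066 in the P18 pools and 910.3 and 979 in the P20 pools, a difference of -1.61 (SE 0.19, limma adjusted p = 2.3e-06). Its relative Cplx2 rose, with a difference of 0.69 (SE 0.14, limma adjusted p = 0.000651). Syt1, the calcium sensor of fast release, had 748 and 619 in the P28 pools and 704 and 564 in the P32 pools, against 1365 and 1143 in the P18 pools and 1900.0 and 1821 in the P20 pools, a difference of -1.22 (SE 0.16, limma adjusted p = 5.74e-06). In all 4 genes the older and younger pools did not overlap. Vamp2, the main vesicle SNARE, differed between its probe sets. The bright one had 2767 to 3058 in the P28 and P32 pools and 2841 to 3261 in the P18 and P20 pools, a difference of -0.07 (SE 0.09, limma adjusted p = 0.577), and the other had 114 to 206 in the P28 and P32 pools and 475 to 661 in the P18 and P20 pools, a difference of -1.91 (SE 0.26, limma adjusted p = 1.23e-05).

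Of 16 voltage-gated channel genes, 7 fell and 2 rose, with a median of -0.17. Holding the Gapdh ratio as a covariate left 2 decreases and 0 increases. Cacna1a, the P/Q-type calcium channel of nerve terminals, had 4.47 and 17.8 in the P28 pools and 6.11 and 17.9 in the P32 pools, against 107 and 75.7 in the P18 pools and 71.2 and 74.3 in the P20 pools, a difference of -3.07 (SE 0.48, limma adjusted p = 6.34e-05). Kcna2, a potassium channel of axons, had 29.8 and 21.7 in the P28 pools and 10.1 and 18.7 in the P32 pools, against 83.4 and 84.5 in the P18 pools and 82.3 and 64 in the P20 pools, a difference of -2.06 (SE 0.33, limma adjusted p = 6.34e-05). Both were dim in the older pools. With log2(value + 32) the Cacna1a difference was -1.39, still called, and with the Gapdh covariate it was -1.91 (limma adjusted p = 0.0739), not called. Kcna1, the partner of Kcna2, had a difference of 0.63 (SE 0.28, limma adjusted p = 0.0916). Hcn2, a pacemaker channel, fell by 0.80 and Kcnj4, an inward rectifier, by 0.87, both called. Of 10 genes of GABA and glycine receptors and chloride transport, 2 fell and 1 rose. Slc12a5, the chloride extruder KCC2 of mature neurons, had 46.6 and 34.4 in the P28 pools and 34.7 and 20.7 in the P32 pools, against 67.4 and 74.8 in the P18 pools and 64.9 and 67.6 in the P20 pools, a difference of -1.07 (SE 0.23, limma adjusted p = 0.0015). Gabra2, a GABA-A receptor subunit, had 87.1 and 70.4 in the P28 pools and 264 and 260.3 in the P32 pools, against 109 and 149 in the P18 pools and 69.8 and 54.7 in the P20 pools. The P32 pools were the highest and the P28 pools lay among the younger ones, and the difference was 0.69 (SE 0.29, limma adjusted p = 0.0716).

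Of 18 interneuron marker and neuropeptide genes, 5 fell and 0 rose, with a median of -0.29. Sst had 1167 and 1237 in the P28 pools and 716 and 919 in the P32 pools, against 1374 and 1579 in the P18 pools and 2115 and 1902 in the P20 pools, a difference of -0.80 (SE 0.15, limma adjusted p = 0.000367). Every older pool was below every younger one, and the P20 pools were the highest. Cort, which encodes the related peptide cortistatin, had 124 and 174 in the P28 pools and 43.5 and 73 in the P32 pools, against 152 and 198 in the P18 pools and 268 and 231 in the P20 pools, a difference of -1.19 (SE 0.22, limma adjusted p = 0.000409). Cck had 1551 to 1869 in the P28 and P32 pools and 2055 to 2403 in the P18 and P20 pools, a difference of -0.37 (SE 0.13, limma adjusted p = 0.0385), and Npy had 408 to 578 in the P28 and P32 pools and 484 to 763 in the P18 and P20 pools, a difference of -0.29 (SE 0.10, limma adjusted p = 0.0339), and the pools overlapped for Npy but not for Cck. Of the 8 fits that left out 1 pool, Cck lost its call in 8 and Npy in 7, with a largest limma adjusted p of 0.1 for Cck and 0.142 for Npy. Of the 5 decreases, 2 were called whichever pool was left out. Pvalb, of fast-spiking interneurons, was not called, at -0.29 (SE 0.12, limma adjusted p = 0.0594). Gad1 and Gad2, which make GABA, had 0.23 and -0.30, neither called. With the Gapdh ratio as a covariate none of the 18 was called, and the median was -0.17.

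Among young-neuron and axon growth genes, 26 were tested, of which 6 fell and 5 rose, with a median of -0.12. Under the Gapdh covariate 0 fell and 1 rose. Dpysl3, a growth cone protein, had 52.6 and 50.4 in the P28 pools and 47.6 and 40.2 in the P32 pools, against 112 and 98.8 in the P18 pools and 147 and 130.0 in the P20 pools, a difference of -1.35 (SE 0.20, limma adjusted p = 3.36e-05). L1cam, an adhesion molecule of growing axons, had a difference of -1.14 (SE 0.18, limma adjusted p = 7.87e-05). Dcx, the microtubule protein of migrating neurons, had 113 to 138 in the P28 and P32 pools and 145 to 155 in the P18 and P20 pools, a difference of -0.25 (SE 0.18, limma adjusted p = 0.329), and Gap43 had -0.20 (SE 0.16, limma adjusted p = 0.353). Of 24 genes of the actin and tubulin cytoskeleton, 6 fell and 5 rose. Map2, a microtubule protein of dendrites, had 44.1 and 43 in the P28 pools and 63.7 and 55 in the P32 pools, against 197 and 218 in the P18 pools and 171 and 156 in the P20 pools, a difference of -1.86 (SE 0.19, limma adjusted p = 3.7e-07). Mapt (tau), of axons, moved the other way, with 2611 and 2517 in the P28 pools and 3107 and 2602 in the P32 pools, against 1490.0 and 1111 in the P18 pools and 1556 and 1582 in the P20 pools, a difference of 0.93 (SE 0.15, limma adjusted p = 0.000107). Map2 was called with the Gapdh ratio as a covariate, at -1.71 (adjusted p = 0.000969) in limma, and Mapt was not, at 0.35 (adjusted p = 0.164).

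Of 18 Wnt pathway genes, 6 fell and 0 rose, with a median of -0.35. Once the Gapdh ratio was a covariate, 1 fell and 1 rose, with a median of -0.32, and 2 fell without P18 pool 1d or P32 pool 1a. Over all genes tested, 623 fell without P18 pool 1d and 546 without P32 pool 1a, against 827 with all pools. Wnt7b, a secreted ligand, had 12.3 and 8.6 in the P28 pools and 5.77 and 10.8 in the P32 pools, against 50.4 and 58.4 in the P18 pools and 32.7 and 47.5 in the P20 pools, a difference of -2.36 (SE 0.24, limma adjusted p = 3.21e-07). The probe set was dim at both ages. The cytoplasmic adaptor gene Dvl2 had -0.84 and the receptor genes Fzd9 and Fzd2 -0.70 each, all called. Of the 8 fits that left out 1 pool, Dvl2 lost its call in 4 (largest limma adjusted p = 0.107), and Fzd9 and Fzd2 in 2 each. Of 14 Ras and MAP kinase genes, 2 fell and 1 rose. Rasgrp1, an exchange factor that turns Ras on, had 91.6 and 77.4 in the P28 pools and 60.9 and 77.1 in the P32 pools, against 236 and 229.8 in the P18 pools and 214 and 191 in the P20 pools, a difference of -1.51 (SE 0.14, limma adjusted p = 1.45e-07). The probe set for Nf1 itself was below the filter, with 2.15 to 19.1 in the P28 and P32 pools and 4.8 to 15.9 in the P18 and P20 pools.

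Lists of protein turnover and RNA processing were counted next. Of 13 cytoplasmic ribosomal protein genes, 7 rose and 1 fell, with a median of 0.25. Rpl19 had 3280.0 and 3154 in the P28 pools and 3502 and 3462 in the P32 pools, against 2340.0 and 2603 in the P18 pools and 2161 and 2128 in the P20 pools, a difference of 0.54 (SE 0.08, limma adjusted p = 1.77e-05). Of 26 proteasome genes, 9 rose and 3 fell, with a median of 0.14. Psma4 had a difference of 0.60 (SE 0.11, limma adjusted p = 0.000274) and Psmb7 one of 0.56 (SE 0.08, limma adjusted p = 3.28e-05), and in both genes no older pool overlapped a younger one. Of 24 splicing and hnRNP genes, 7 rose and 3 fell, with a median of 0.20, led by Sf3b1, a core subunit of the U2 particle, at 0.83 (SE 0.18, limma adjusted p = 0.00124). Hnrnph1 had 0.52 and Ptbp2, the neuronal splicing repressor, -0.63, both called. Against P18 alone 11 splicing genes rose and 1 fell, with a median of 0.49, while against P20 alone 1 rose and 4 fell, with a median of -0.01. The proteasome list had 10 increases and 3 decreases against P18 alone, and 3 of each against P20 alone. The ribosomal list had 5 increases and 1 decrease against P18 and 3 and 0 against P20. Calls were fewer against P20 over all genes tested too, with 347 increases and 426 decreases, against 793 and 795 in the comparison with P18. The proteasome increases were 5 without P18 pool 1d and 6 without P28 pool 1b, and the splicing increases were 4 without P18 pool 1d, P28 pool 1a or P32 pool 1a. Over all genes tested, increases were 538 without P18 pool 1d and 599 without P28 pool 1b, against 803 with all pools. They were 602 without P28 pool 1a and 478 without P32 pool 1a. With the Gapdh ratio as a covariate 1 of the 13 ribosomal, 1 of the 26 proteasome and 0 of the 24 splicing genes were called.

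**Figure D3:**
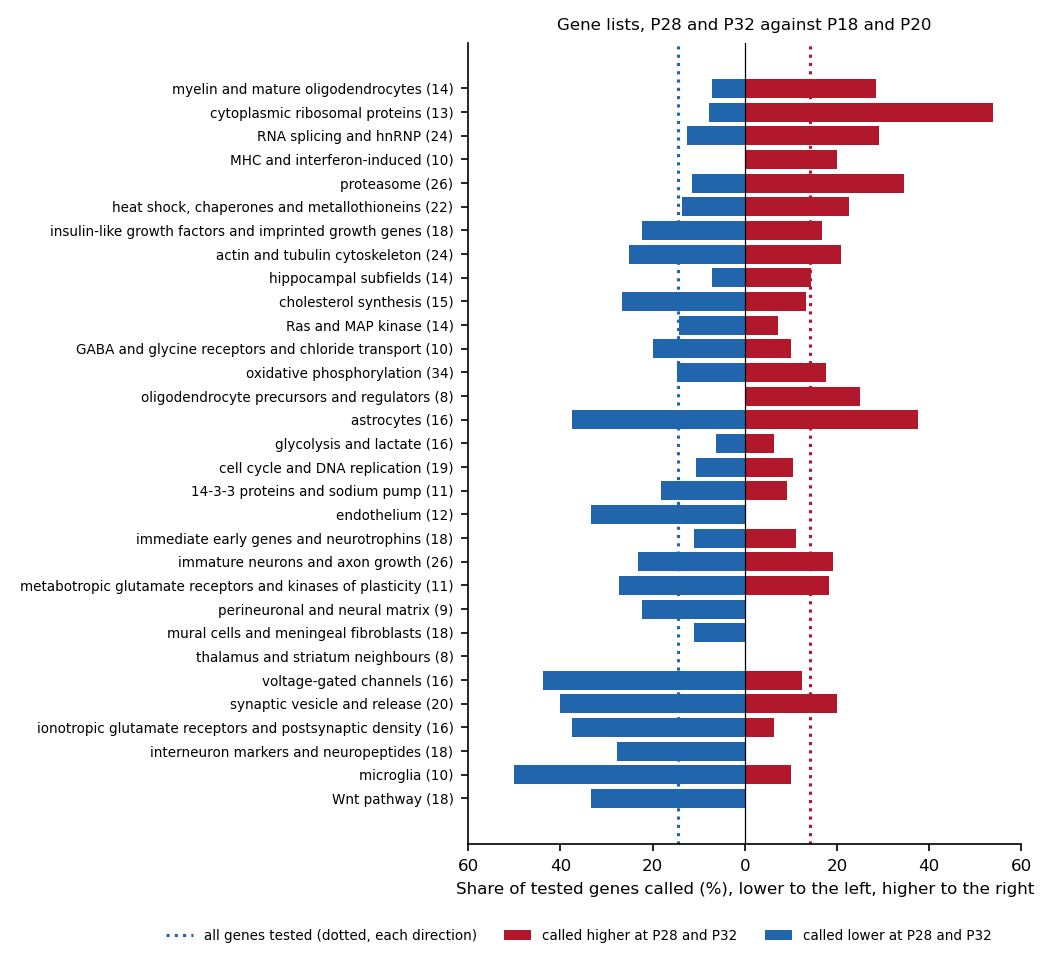
Share of the tested genes of each list (number tested in brackets) that limma called lower, to the left, or higher, to the right, at P28 and P32 than at P18 and P20. Dotted lines give the same shares over all 5694 genes tested. Of 18 Wnt pathway genes 6 were lower and 0 higher, and of 13 ribosomal protein genes 7 were higher and 1 lower.

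Markers of neighbouring tissue and blood were compared because dissections can differ. Of 8 genes of thalamus and striatum tested, 0 were called, and the 9 on the array had a summed intensity of 1290 to 2758 at P28 and P32 and 1203 to 1952 at P18 and P20. Of 6 choroid plexus genes, 1 fell, and the 10 on the array summed to 2086 to 3907 at P28 and P32 and 1995 to 3935 at P18 and P20. Ttr, the transport protein of choroid plexus, had 832 to 2077 in the P28 and P32 pools and 528 to 1887 in the P18 and P20 pools, a difference of 0.18 (SE 0.85, limma adjusted p = 0.896). Of 3 blood genes none was called, and Hba-a1 had -0.37. Against P18 alone Hba-a1 was called lower, at -0.73 (limma adjusted p = 0.00885), and against P20 alone it had -0.01 (limma adjusted p = 0.991). The 5 blood genes on the array summed to 2082 to 3250 at P28 and P32 and 2330 to 4525 at P18 and P20. Of 12 endothelial genes, 4 fell and 0 rose, among them Tie1 at -0.81 and Cldn5 at -0.48, but none of the 4 was called in every fit that left out 1 pool (largest limma adjusted p = 0.21 for Tie1 and 0.072 for Cldn5), and 0 of the 12 with the Gapdh ratio as a covariate. Their summed intensity was 1193 to 1485 at P28 and P32 and 1480 to 1688 at P18 and P20. Of 18 genes of mural cells and meninges, 2 fell, among them the pericyte gene Rgs5, with 78.4 and 69.6 in the P28 pools and 97.5 and 80.1 in the P32 pools, against 197 and 211 in the P18 pools and 139 and 127 in the P20 pools, a difference of -1.02 (SE 0.14, limma adjusted p = 1.38e-05). Of 14 genes of hippocampal subfields, 2 rose and 1 fell. The part of vascular cells in the other results was not tested.

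Of 18 immediate early genes and neurotrophins, 2 rose and 2 fell. Bdnf, the neurotrophin of activity, had 1079 and 1038 in the P28 pools and 799.6 and 716 in the P32 pools, against 689 and 457 in the P18 pools and 604 and 593 in the P20 pools, a difference of 0.63 (SE 0.17, limma adjusted p = 0.00863), with the P28 pools highest. Jun rose by 0.63. Bdnf was not called without P18 pool 1d (limma adjusted p = 0.0696), nor was Jun in 4 of the 8 fits that left out 1 pool (largest adjusted p = 0.0938). Fos and Egr1 had -0.09 and 0.33, neither called. Of 19 cell cycle genes, 2 rose and 2 fell. Ccnd2, a cyclin of dividing progenitors, had 55.6 and 66.1 in the P28 pools and 71.1 and 63.1 in the P32 pools, against 29.4 and 29 in the P18 pools and 30.9 and 25.3 in the P20 pools, a difference of 1.16 (SE 0.24, limma adjusted p = 0.000859). Mki67, the marker of cycling cells, had 0.26, not called.

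The younger group joined ages 2 days apart, so the older pools were also set against each age alone. The older pools differed from P18 alone in 2065 probe sets (27.7%), with 977 higher (13.1%) and 1088 lower (14.6%, limma), and an unadjusted p was below 0.05 for 39.8%. They differed from P20 alone in 1071 (14.4%), with 458 higher (6.15%) and 613 lower (8.22%), and an unadjusted p was below 0.05 for 28.7%. Titles of the P20 pools carry the number 2 and those of the other 6 pools the number 1, so age and title number cannot be told apart in the comparison with P20. What that number means is not stated by the labels. In both comparisons 275 probe sets were higher (3.69%) and 489 lower (6.56%). The comparisons share the older pools, so this overlap is a description. Between P20 and P18, 10 were called higher and 12 lower at P20 (0.295%, or 0.134% and 0.161%), and 1023 (13.7%) had an unadjusted p below 0.05. Between P32 and P28, 2 were called higher and 3 lower at P32 (0.0671%, or 0.0268% and 0.0403%), and 466 (6.25%) had an unadjusted p below 0.05.

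A group of 118 probe sets (1.58%) was called against P20 and differed by less than 0.25 from P18. Irak1, a kinase of interleukin-1 signalling, was among them, with 199 and 244 in the P28 pools and 239.6 and 252 in the P32 pools, against 187 and 213 in the P18 pools and 111 and 101 in the P20 pools. The P18 pools lay near the older ones and the P20 pools below them. The difference was 0.22 against P18 and 1.14 against P20. Cryl1, a crystallin-related dehydrogenase, had 0.22 against P18 and 1.31 against P20 in 1 probe set. Fabp3, a fatty acid-binding protein, had -0.23 against P18 and -0.86 against P20. The converse group, called against P18 with a difference below 0.25 from P20, held 631 (8.47%).

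Levels over all 6 ages placed the P18 and P20 pools in a longer course. Ago2 averaged 249.8 at P10, 230.5 at P15, 77.9 at P18, 62.9 at P20, 284 at P28 and 418 at P32, so that P18 and P20 were the lowest ages and the older pools returned to levels at or above those of P10 and P15. Aqp4 averaged 1102 at P10, 796 at P15, 616 at P18, 456 at P20, 923 at P28 and 1179 at P32, with the same dip. Arf3 (the probe set with the largest change) averaged 79.1 at P10, 186 at P15, 308 at P18, 311 at P20, 40.6 at P28 and 32.2 at P32, highest at P18 and P20. Kif5c averaged 84.5 at P10, 124 at P15, 235 at P18, 244 at P20, 60.5 at P28 and 53.4 at P32, also highest at those ages. Glul averaged 278 at P10, 396 at P15, 416 at P18, 464 at P20, 1593 at P28 and 1535 at P32, with its step between P20 and P28. Sst averaged 1806 at P10, 1769 at P15, 1477 at P18, 2008 at P20, 1202 at P28 and 818 at P32. The Gapdh 3′/5′ ratio of the wild-type pools also had a course over these ages. It was 0.90 to 1.04 at P10, 0.84 to 0.92 at P15, 0.793 to 0.855 at P18 and P20 and 0.996 to 1.11 at P28 and P32. The lowest ratios were those of the P20 pools, and the part of the ratio in the courses of these genes was not tested. The levels are descriptions with 2 to 4 pools per age.

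**Figure D4:**
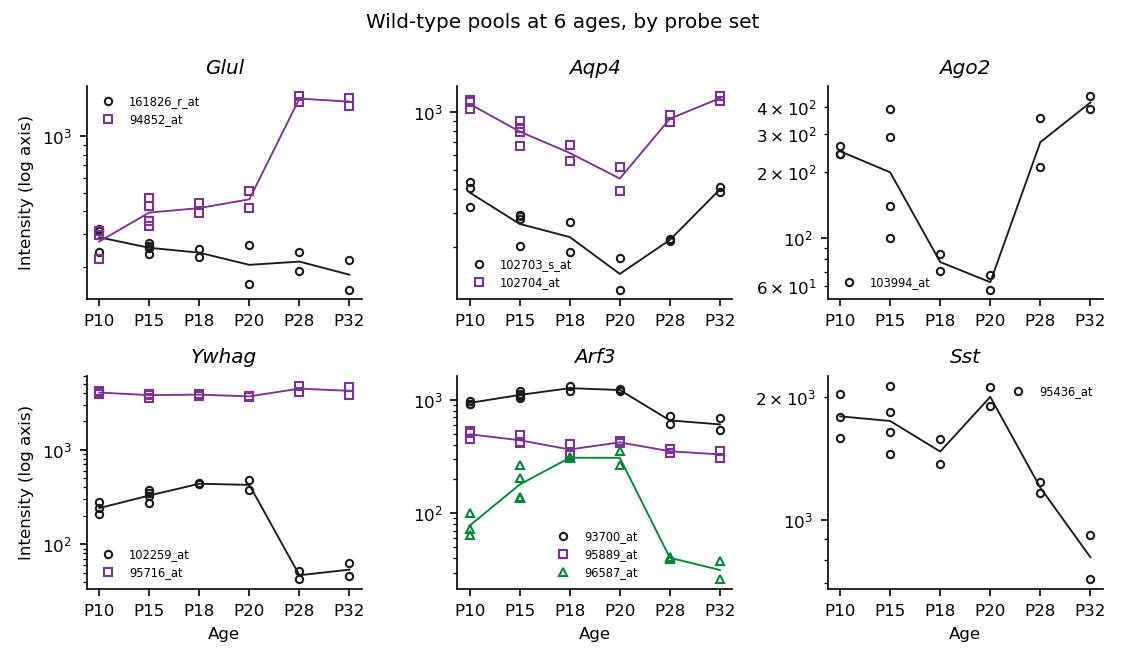
Intensity (log axis) of each wild-type pool by age for 6 genes, with 1 colour and shape per probe set and lines through the mean of the log2 values. Ago2 and Aqp4 are lowest at P20, 1 Arf3 and 1 Ywhag probe set are highest at P18 and P20 while brighter sets change less, and 1 Glul probe set steps up between P20 and P28.

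How far probe sets of 1 gene moved together was counted over the whole array. Of 924 genes with at least 2 tested probe sets, 488 had at least 1 called. Of these, 94 had 2 or more called in the same direction only, 37 were called in opposite directions, and 357 had 1 called alone. Of the 24 genes in the plot of pool intensities, 13 had another tested probe set, 17 sets in all. Of these 17, 6 were called in the same direction, 1 in the opposite direction and 10 were not called. Of the 17, 10 were brighter than the set named here, and 6 of those were not called. The positions of the probes along each transcript were not analysed here.

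The change with age in wild type was tested against that in Nf1 heterozygotes. In heterozygotes limma called 181 probe sets (2.43%), 79 higher (1.06%) and 102 lower (1.37%) at P28 and P32 than at P18 and P20, and an unadjusted p was below 0.05 for 17.6%. The test of the difference itself called 901 (12.1%), 516 with a higher (6.92%) and 385 with a lower (5.17%) change in heterozygotes, and an unadjusted p was below 0.05 for 27.9%. Actb, Peg3, Nexmif and Ndufa3 were chosen for the smallest p in this test, so their values are a description. In heterozygotes the Actb intensities were 173, 248 and 184 in the P28 and P32 pools, against 149, 27.8, 71.2 and 67.7 in the P18 and P20 pools, while in wild type the older pools were the lower ones. The difference in change was 4.04 (SE 0.48, limma adjusted p = 9.74e-05). Peg3, an imprinted zinc finger gene of growth, had 401, 318 and 206 in older and 559.9, 873, 682 and 584 in younger heterozygous pools. In wild type the order was the reverse, with 525 to 727 in the P28 and P32 pools and 273 to 424 in the P18 and P20 pools. The difference in change was -2.20 (SE 0.29, limma adjusted p = 0.000193). A brighter Peg3 set had -0.32 (SE 0.16, limma adjusted p = 0.199) and a dimmer one -0.11 (SE 0.19, limma adjusted p = 0.755). Nexmif had -2.96 (SE 0.38, limma adjusted p = 0.000153) and Ndufa3, a subunit of respiratory complex I, had -1.93 (SE 0.28, limma adjusted p = 0.000574) in a dim probe set. A brighter Ndufa3 set had -0.02 (SE 0.11, limma adjusted p = 0.95).

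The direction was shared by the genotypes for Fgf13, with 45, 55.4 and 36.7 in older and 178, 89.8, 132 and 153 in younger heterozygous pools. Its difference in change was 0.79 (SE 0.25, limma adjusted p = 0.0413). For Cacna1a the difference in change was 0.87 (SE 0.73, limma adjusted p = 0.463), not called. For Glul the heterozygous pools at P18 and P20 had 926, 1104, 1251 and 595, above all wild-type pools of those ages, while those at P28 and P32 had 1325, 1342 and 1409. The difference in change was -1.28 (SE 0.25, limma adjusted p = 0.00338). The Gapdh 3′/5′ ratio was 0.909 to 1.03 in older and 0.965 to 1.4 in younger heterozygous pools, so in heterozygotes it did not move with age as in wild type. With that ratio as a covariate the test of the difference in change called 0 probe sets, with 774 at an unadjusted p below 0.05. The heterozygous P18 pools, at 0.9655 and 1.3951, weigh most in how that fit estimates the effect of the ratio. The part of the ratio in the difference between genotypes was not tested further.

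**Figure D5:**
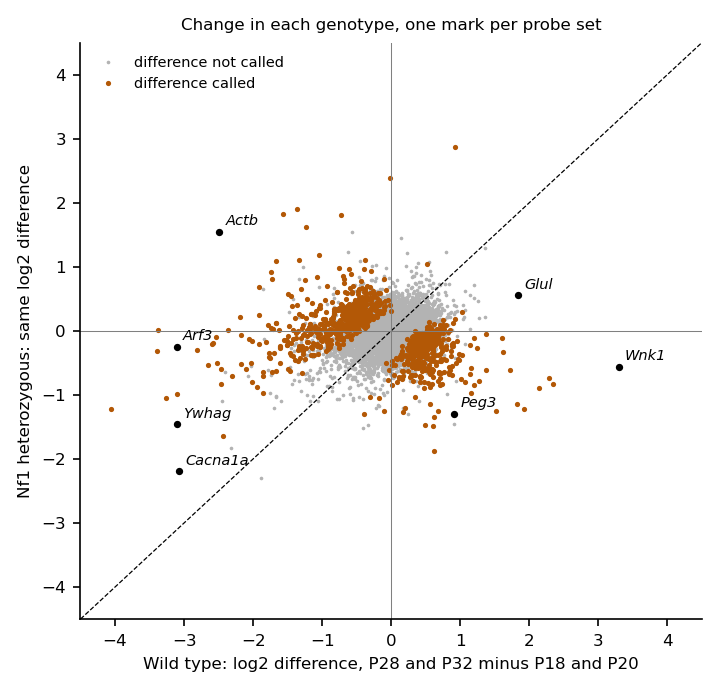
Log2 difference of P28 and P32 minus P18 and P20 in wild type (horizontal) and in Nf1 heterozygotes (vertical), 1 mark per probe set tested. Orange marks are the 901 probe sets with a called difference between the genotypes, and the dashed line marks equal change. Wnk1 and Actb lie far from it and Cacna1a near it.

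Gene spans and promoters were set beside the calls, with the probe set of the smallest p for each gene. Genes called higher spanned a median of 28.8 kb on GRCm38.p6 (quartiles 12.8 and 63.6), genes called lower 16.1 kb (quartiles 6.33 and 38.9) and all genes tested 21 kb (quartiles 8.57 and 49). The printed window was found for 695 of 858 genes called higher and 768 of 961 called lower. Its median GC content was 63% for genes called higher, 61.7% for genes called lower and 61.3% for all tested genes. TGACGTCA, the element in the Sst and Kif5c windows, was in 2.88% of the windows of genes called higher, 3.26% of those called lower and 3.16% of those of all genes tested. GGGCGG was in 69.6%, 66.8% and 66.6% of the same groups and TATAAA in 4.32%, 7.29% and 7.63%. These shares are descriptions and were not tested.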

How the data were processed

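Single-colour Affymetrix MG-U74Av2 arrays measured total RNA of pooled hippocampi. The authors deposited linear intensities, with 1 value for each probe set on each array. The software behind them is not given in the sources. After 2% of the values at each end had been left out, all arrays had nearly the same mean, so none was normalized further. Intensities were raised to a floor of 1 and put on the log2 scale, and no value was at or below 0. The platform annotation gave 10833 probe sets 1 symbol, 396 several and 1193 none, and 10817 matched RefSeq genes of GRCm38.p6 by Entrez identifier. Only probe sets with 1 symbol were named. The lowest 40% of probe sets by mean log2, 4969 of them below 4.95 (an intensity of 30.9), were left out.

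A linear model with 12 means of genotype and age was fitted to all 30 arrays in limma 3.58.1 and R 4.3.3 (18 residual degrees of freedom, intensity trend, two-sided tests, Benjamini-Hochberg adjustment, called below 0.05). The number of arrays limits the precision. The reported difference is the mean of the P28 and P32 means minus that of the P18 and P20 means. The computations were tested on simulated data. Members and gene lists were chosen with earlier results of these data known.

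The rule named the 12 largest called increases and decreases with groups that do not overlap and a mean log2 of at least 7 in the higher group. It added the 6 largest in each direction that were called against P18 alone and P20 alone, and the 3 largest in each direction called against P20 with an absolute difference below 0.25 against P18. It added the 4 smallest p of the genotype difference, 2 to 5 leading members of each list described and a fixed set of genes of neurons, glia and blood, of which 4 were not analysed here. The probe set with the smallest p stands for a gene, and the brightest one in lists and for that fixed set. Genes outside the rule were chosen after their values were seen. P28 and P32 pools of the same title code deviated together by a correlation of 0.11. With 2 pools per age, both pairs give the same value by construction, so it cannot decide whether the codes pair pools. The codes are not known to do so and were not taken to pair pools. Alternatives changed the floor, filter, normalization, variance prior, array weights, the arrays fitted, a covariate, a block and the pools.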

Additional observations from a re-analysis of the deposited data

Results flagged for a closer look

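For 33 of the 59 named probe sets that were tested, the change from P18 and P20 to P28 and P32 differed between heterozygotes and wild type (limma adjusted p below 0.05 in the test of the difference, where 12.1% of all probe sets tested were called). These probe sets were chosen mostly for the size of their change in wild type, and 4 for the smallest p in this same test. The choice favours a difference opposite in sign to the wild-type change, so the count and the values are a description, and nothing is read from that share. The values here are the heterozygous change minus the wild-type change on the log2 scale. Among genes higher in older wild-type pools, the value was -3.85 for Wnk1, -3.02 for Ago2, -3.03 for Ddx6, -3.18 for Xrn1 and -2.96 for Nexmif. It was -2.20 for Peg3, -2.05 for Pcm1, -2.04 for Sox11, -1.99 for Dhx36, -1.95 for Sbno1, -1.93 for Ndufa3 and -1.71 for Snw1. It was -1.44 for Aqp4, -1.42 for Zfp106, -1.37 for Mmut, -1.28 for Glul, -1.21 for Cryl1 and -0.85 for Bdnf. Gabra2 and Kcna1, which were not called in wild type, had -1.34 and -1.97. Among genes lower in older wild-type pools, the value was 4.04 for Actb, 3.39 for St6galnac6, 3.08 for Dnajb5 and 2.86 for Arf3. It was 2.43 for Lasp1, 2.13 for Pip5k1c, 2.12 for Nsmf, 1.86 for Nfix and 1.65 each for Ywhag and Atp6v0a1. It was 1.61 for Pcsk1n, 1.5 for Kif5c and 0.79 for Fgf13. A fit that held the Gapdh 3′/5′ ratio constant called 0 probe sets in this test, against 901 without it.

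In 5 of 124 groups of 4 pools checked, 1 pool lay far from the others, and chance marks about 1 in 20 groups. P32 pool 1a was the lowest older pool for Lasp1 (an intensity of 6.91), Atp6v0a1 (83.0) and Mag (397). P18 pool 1c was the highest younger pool for Sox11 (179) and Cacna1a (107).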

How the results depend on the processing

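The count of 2154 probe sets called at P28 and P32 against P18 and P20 became 322 with the Gapdh ratio held as a covariate and 476 with the title code as a replicate block, and 1364 to 2043 with 1 pool left out, lowest without P32 pool 1a. Against P18 alone, the 2065 calls became 597 with the Gapdh covariate and 144 with the replicate block, and 720 to 1995 with 1 pool left out, with 720 without P18 pool 1d, 1085 without 1c and 1369 without P32 pool 1a. Against P20 alone, the 1071 calls became 2220 with array weights, 117 with the Gapdh covariate, 186 with the replicate block and 667 with the title number blocked. They were 300 to 1128 with 1 pool left out, with 300 without P20 pool 2a, 333 without 2b and 606 without P32 pool 1a. Between P20 and P18, the 22 calls became 39 with the lowest 60% left out, 37 after quantile normalization, 12 without the intensity trend, 790 with array weights, 157 in the compared groups only and 102 with the Gapdh covariate, and 1 to 16 with 1 pool left out. Between P32 and P28, the 5 calls became 2 without a filter, 1 with the lowest 60% left out, 2 after quantile normalization, 3 without the intensity trend, 1 in wild-type arrays only and 3 with the replicate block, and 0 to 4 with 1 pool left out. The 901 calls of the genotype difference became 245 in the compared groups only, 0 with the Gapdh covariate and 97 with the replicate block. They were 458 to 2018 with 1 pool left out, highest without heterozygous P18 pool 1a. Leaving out the single heterozygous P32 pool could not be fitted. The causes were not tested. Title codes are not known to pair pools, and none was shared by older and younger wild-type pools. Under the replicate block the brightest Mobp probe set turned to -1.39 (limma adjusted p = 0.00954). Of 59 named probe sets, 24 lost their call with the Gapdh covariate and 20 with the replicate block, and with log2(value + 32) none did. Not all of the 59 had a call to lose, those of Mbp, Mog and Ttr among them, so the share lost among called probe sets is larger. The stricter filter (lowest 60% dropped) tested 39 of the 59, and none of these 39 lost its call. Under each of the other settings at most 3 of the 59 did. Dim probe sets limit the size of a fold change.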

Other observations

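Several lists of metabolism and stress were not described above, and their members had differences in both directions at P28 and P32 against P18 and P20. Of 15 cholesterol synthesis genes, 4 fell and 2 rose, with Nsdhl at -0.66, Mvd at -0.63 and Sc5d, which makes the ring double bond of cholesterol precursors, at 0.98, all called by limma. Of 34 oxidative phosphorylation genes, 6 rose and 5 fell, with a median of 0.00, and the complex III core genes Uqcrc1 and Uqcrc2 had -0.61 and 0.60, both called. Of 16 glycolysis genes, 1 rose (Pgk1, 0.37) and 1 fell (Pfkm, -0.44). Of 22 heat shock and metallothionein genes, 5 rose, among them the chaperone genes Hspa5 (0.52) and Hspa8 (0.41), and 3 fell, among them Dnajb5 and Mt3 (-0.55). Of 10 MHC and interferon-induced genes, 2 rose, led by the guanylate-binding protein gene Gbp3 at 1.02. No gene of these 5 lists was called under the Gapdh covariate. Mvd, Uqcrc1, Pgk1 and Pfkm also lost their calls without 1 or more of the pools, with a largest limma adjusted p of 0.078, 0.127, 0.0737 and 0.115.

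Of 18 insulin-like growth factor and imprinted genes, 3 rose and 4 fell. The receptor gene Igf1r rose by 1.13, and the ligand genes Igf1 and Igf2 had -0.45 and -0.58, all called by limma, but Igf2 was not called in 6 of the 8 fits that left out 1 pool (largest adjusted p = 0.163). None of the 18 was called with the Gapdh ratio as a covariate. Of 11 genes of 14-3-3 proteins and the sodium pump, 2 fell and 1 rose, with Fxyd7, a regulator of the pump in neurons, at -1.94. Of 9 genes of the neural matrix, 2 fell, Bcan (brevican, of perineuronal nets) at -1 and Gpc1 at -0.47, the second not called in 5 of those 8 fits (largest limma adjusted p = 0.133).

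The 5 probe sets called between P32 and P28, named after their values were seen, were those of Nnt (2 on the log2 scale), Anxa5 (0.74) and Col7a1 (-1.51) and 2 with no symbol.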
